A study of Mus musculus with 16 samples.

Results

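The genes described here encode the metalloproteases of the matrix metalloproteinase (MMP), ADAMTS and ADAM families and their tissue inhibitors (TIMPs). They were chosen by name alone, as protein-coding mouse genes whose symbol is Mmp, Timp, Adamts or Adam followed by a number. The rule found 58 genes among the 26653 genes of the 3 tables of the series: 19 Mmp, 3 Timp, 18 Adamts and 18 Adam genes. Of these, 45 were in the table of embryonic stem cells (ESCs), 49 in that of embryonic fibroblasts (MEFs) and 39 in that of cells labelled kidney fibroblasts (MKFs), and 29 were in all 3. Every member passed the filter on low values in each table that holds it. A further 20 of the 78 annotated genes that match the rule were not analysed here.

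The active enzymes cut proteins with a zinc ion at the active site and are made as inactive precursors. Secreted MMPs and ADAMTS proteases act mainly on extracellular matrix, on fibrillar and basement membrane collagens and on proteoglycans such as versican and aggrecan, while most active ADAMs sit in the membrane and release the outer parts of other membrane proteins, among them growth factors and Notch. TIMPs bind active MMPs one to one, and Timp3 also blocks some ADAMs and ADAMTS proteases. Fibroblasts are a main source of MMPs and TIMPs in connective tissue.

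RNA sequencing of total RNA gave 16 libraries in 8 groups of 2. By their labels, ESCs were Actb knockout (KO), carried a deletion of the full Actb locus (locus-deleted), or were wild type. MEFs were Actg1 KO, carried a deletion of the full Actg1 locus, or were wild type, and MKFs were Kindlin-2 KO or carried a floxed Kindlin-2 gene, that is, a gene marked with sites for its removal by a recombinase. Actb and Actg1 encode the cytoplasmic actins, and Kindlin-2, the product of Fermt2, activates integrins. The series asked how cells adapt to a mutant gene and set each actin KO beside a deletion of the locus. The labels do not say whether a genotype is 1 clone or several, nor whether its 2 libraries were grown apart. The p-values below therefore rest on the spread between libraries alone, which may be technical. In these bulk samples, fewer cells of a type and less RNA per cell cannot be told apart.

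Values are normalised read counts, on a scale set by the authors for each library, and the summed values per library were 16022043 to 16529089 in ESCs, 20305511 to 22094490 in MEFs and 15565648 to 16324223 in MKFs. Reads counted on genes were estimated at 12740000 to 24470000 per library. Differences are given on the log2(value + 1) scale, mutant minus control, with the limma test over all genes of a table and Benjamini-Hochberg adjustment. A gene is said to have risen or fallen only at an adjusted p below 0.05. Shares of all genes are over every gene tested in a table, of any gene type and level. The members are protein-coding only, so these shares are not matched to them. Where a call is said to be lost with a library left out, the fit also had fewer degrees of freedom. A lost call is therefore not by itself a sign that the difference rested on that library. Each targeted gene was lower in its mutants. Actb averaged 23178.5 in Actb KO ESCs and 2354.0 in locus-deleted ESCs, against 35252.0 in wild-type ESCs. The libraries labelled locus-deleted thus kept 6.68% of the wild-type Actb value. The source of these reads was not tested, so the values do not decide whether the locus was fully deleted. Actg1 averaged 1015.0 in Actg1 KO MEFs and 20 in locus-deleted MEFs, against 5704.5 in wild-type MEFs, and Fermt2 averaged 1245.5 in Kindlin-2 KO cells, against 3110.0 in floxed cells.

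The cell type labels were compared with 8 fibroblast marker genes (Col1a1, Col1a2, Col3a1, Pdgfra, Pdgfrb, Dcn, Lum, Thy1) and with markers of other types. In MEFs all 8 were in the table, and their values summed to 145043 and 151969 in Actg1 KO, to 32997 and 33379 in locus-deleted and to 38246 and 34898 in wild-type libraries. In MKFs only 4 of the 8 were in the table, summing to 22 and 21 in Kindlin-2 KO and to 78 and 84 in floxed libraries, while 2 kidney epithelial markers, Pax8 and Cdh16, summed to 5398 and 5224 and to 3554 and 3697. The 4 epithelial markers summed to 19200 and 19698 in KO and to 2045 and 2187 in floxed libraries. Of 3 neural markers 2 were in the table, summing to 8816 and 9286 in KO and to 11587 and 12115 in floxed libraries. The low fibroblast sums go against the fibroblast label, and the other lists do not point to 1 cell type. These cells are therefore called MKFs below only as their label has it. The 6 ESC markers summed to between 33182 and 38524 in all 6 ESC libraries.

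The members with the highest levels differed between the cell types. Per kilobase of exon, the members with the highest levels in wild-type MEFs were Mmp3, or stromelysin-1, at 15100 ± 89.5 (SD, n = 2), Mmp13, the main collagenase of mice, at 6470 ± 70.9, and Timp1 at 3780 ± 11.9, followed by Timp2 at 2160 ± 89.7 and Timp3 at 1580 ± 125.0. In wild-type ESCs the order began with the membrane sheddases, Adam10 at 241.0 ± 17.3 and Adam9 at 233.0 ± 20.3 per kilobase, which did not differ beyond their spread, followed by Timp1 at 154.0 ± 35.8, Adam19 at 144.0 ± 15.5 and Adam17 at 127.0 ± 3.46. Floxed MKFs were led by Adamts1, a protease of versican, at 2160 ± 11.7 per kilobase, ahead of Timp2 at 797.0 ± 2.18, Adam9 at 532.0 ± 6.87 and Adam10 at 385.0 ± 5.76. Mmp3 and Mmp13, the leading members in MEFs, were analysed in no other table. Some neighbours in these orders changed places when the length of the longest transcript was used: Timp3 then stood at 2730, above Timp2 at 2270, in wild-type MEFs, and Adam17 stood at 203.0, above Adam19 at 160.0 and Timp1 at 155.0, in wild-type ESCs. The tables were normalised separately, so these orders hold within a table only.

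**Figure D1:**
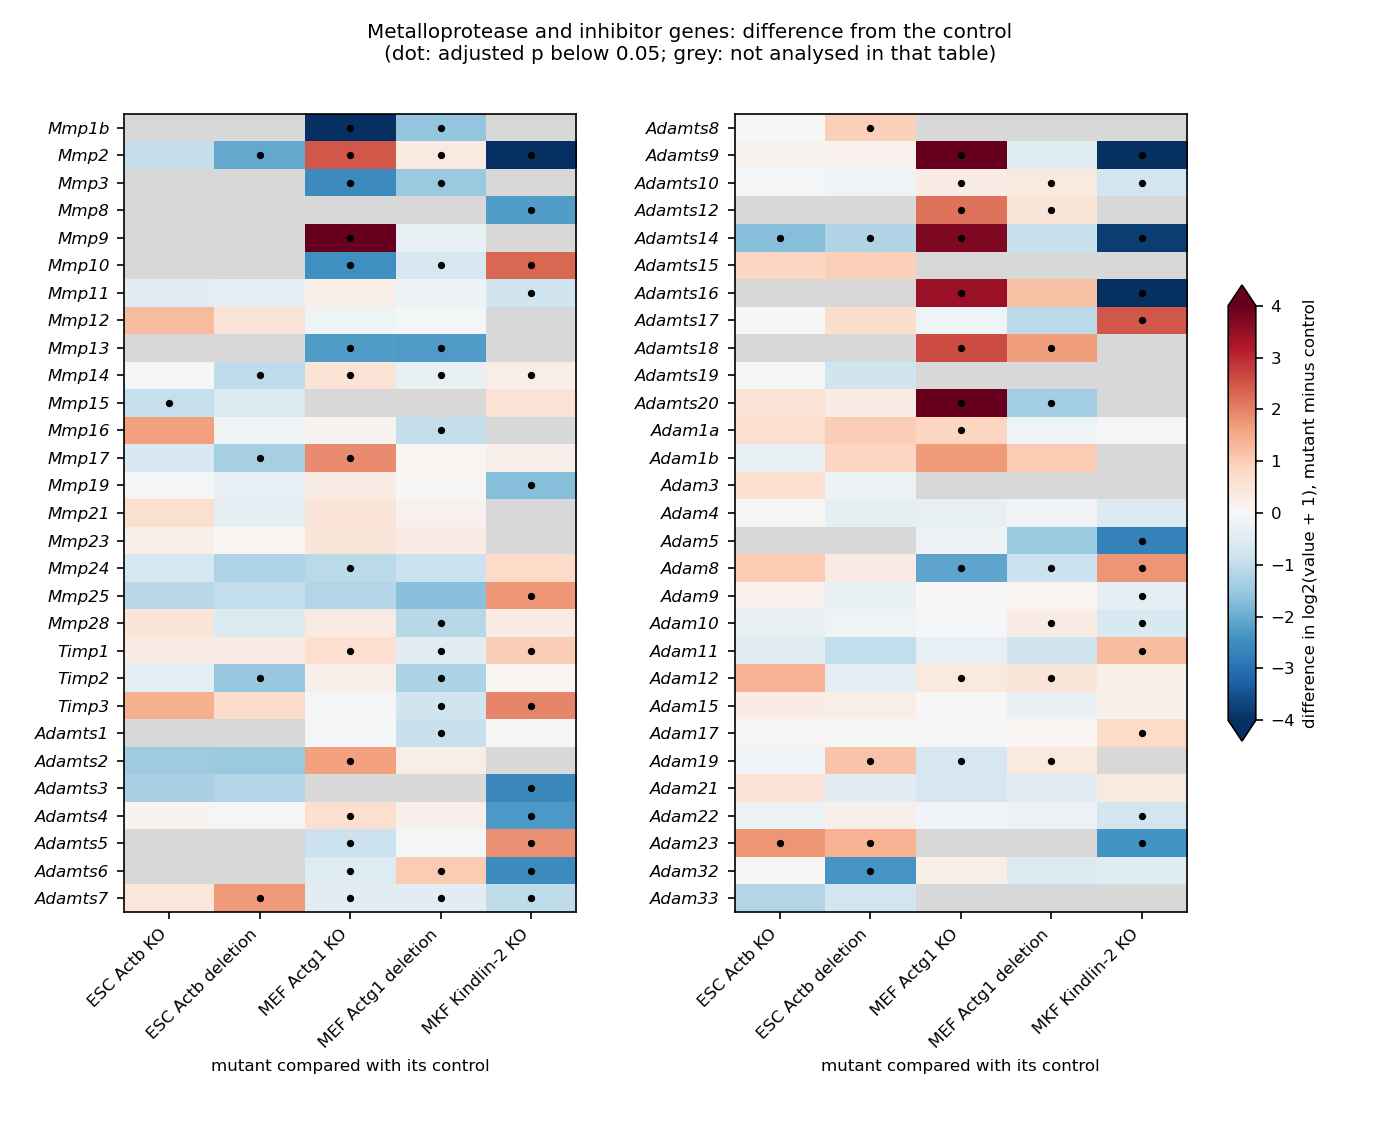
Difference in log2(value + 1) from the control for each of the 58 members (rows) in the 5 comparisons of a mutant with its control (columns), with red for higher and blue for lower in the mutant, a dot where the adjusted p is below 0.05, and grey where the gene was not analysed in that table; the colour scale ends at -4 and 4. Dots are sparse in both ESC columns, with 3 and 10 members called of 45, where 4.88% and 11.2% of all genes were called. They are denser in the others, with 26 and 22 of 49 in MEFs (39.7% and 22.0% of all genes) and 27 of 39 in MKFs (49.2% of all genes).

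In Actg1 KO MEFs, 26 of 49 members changed, 16 rising and 10 falling, against 39.7% of all genes in that comparison (20.6% rose and 19.1% fell). The collagenases and stromelysins on chromosome 9 fell, both gelatinases rose, and 9 of 14 Adamts genes rose, while 3 fell. In locus-deleted MEFs 22 members changed, 8 rising and 14 falling, against 22.0% of all genes (9.46% rose and 12.6% fell), and these included falls of 7 of 17 Mmp genes and of all 3 Timp genes. The median difference over the members was 0.12 in KO and -0.27 in locus-deleted cells, beside 0.06 and 0.00 over all genes. Both comparisons use the same wild-type libraries, so the direct test of KO against locus-deleted MEFs, in which 18 members were higher and 8 lower in KO, against 24.5% and 20.7% of all genes (45.2% in either direction), is given beside them.

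The collagenase Mmp13 had 3791 and 3563 normalised counts in Actg1 KO MEFs and 3297 and 3867 in locus-deleted MEFs, against 17420 and 17152 in wild-type MEFs. All 4 mutant libraries were far below both wild-type libraries, and the mutants overlapped each other. The log2 difference from wild type was -2.23 ± 0.08 (SE) in KO (limma, adjusted p = 2.24e-06) and -2.28 ± 0.08 in locus-deleted cells (adjusted p = 8.79e-06), and the mutants were not called apart (difference 0.04, adjusted p = 0.706). Mmp1b, a relative of human MMP1 found in rodents, had 6 and 7 counts in KO and 38 and 45 in locus-deleted cells, against 133 and 118 in wild type. The 3 groups did not overlap, and the differences from wild type were -4.08 and -1.58 (limma, adjusted p = 1.67e-05 and 0.0035). Its reads could in part come from its close copy Mmp1a, and its exons overlap those of Mmp12 on the other strand over 157 bases.

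Mmp3, which cuts proteoglycans and basement membrane proteins and activates other MMPs, was the member with the highest level in wild-type MEFs. Its values were 4725 and 4519 in KO and 9782 and 9501 in locus-deleted cells, against 27220 and 26992 in wild type. It fell by 2.55 ± 0.05 and by 1.49 ± 0.05 on the log2 scale (limma, adjusted p = 4.7e-07 and 9.67e-06), to 17.1% and 35.6% of the wild-type mean, and the KO lay below the locus deletion by 1.06 (adjusted p = 5.53e-06). Its close relative Mmp10, or stromelysin-2, had 114 and 116 counts in KO and 390 and 420 in locus-deleted cells, against 650 and 623 in wild type, with the 3 groups in the same order as for Mmp3. The differences for Mmp10 were -2.46 and -0.65 (limma, adjusted p = 2.31e-06 and 0.00203).

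These 4 genes lie in a cluster of 9 annotated Mmp genes at chr9:7272514-7699585 (GRCm38), and 5 of the cluster were in the MEF table. The fifth, Mmp12 or macrophage elastase, averaged 6.0 in KO and 6.5 in locus-deleted cells, against 7.5 in wild type, and was not called in either (adjusted p = 0.845 and 0.956). The median over the more highly expressed genes of chromosome 9 (mean of 50 or more) was -0.317 in KO and -0.030 in locus-deleted cells, and with each chromosome centred on its own median Mmp13, Mmp1b, Mmp3 and Mmp10 remained called in both. Of 8 other tested genes within 500 kb of the cluster, a set chosen after the values were seen, 2 rose and 2 fell in KO, with differences between -0.701 and 1.957, and 1 rose and 2 fell in locus-deleted cells, with differences between -1.616 and 0.423.

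**Figure D2:**
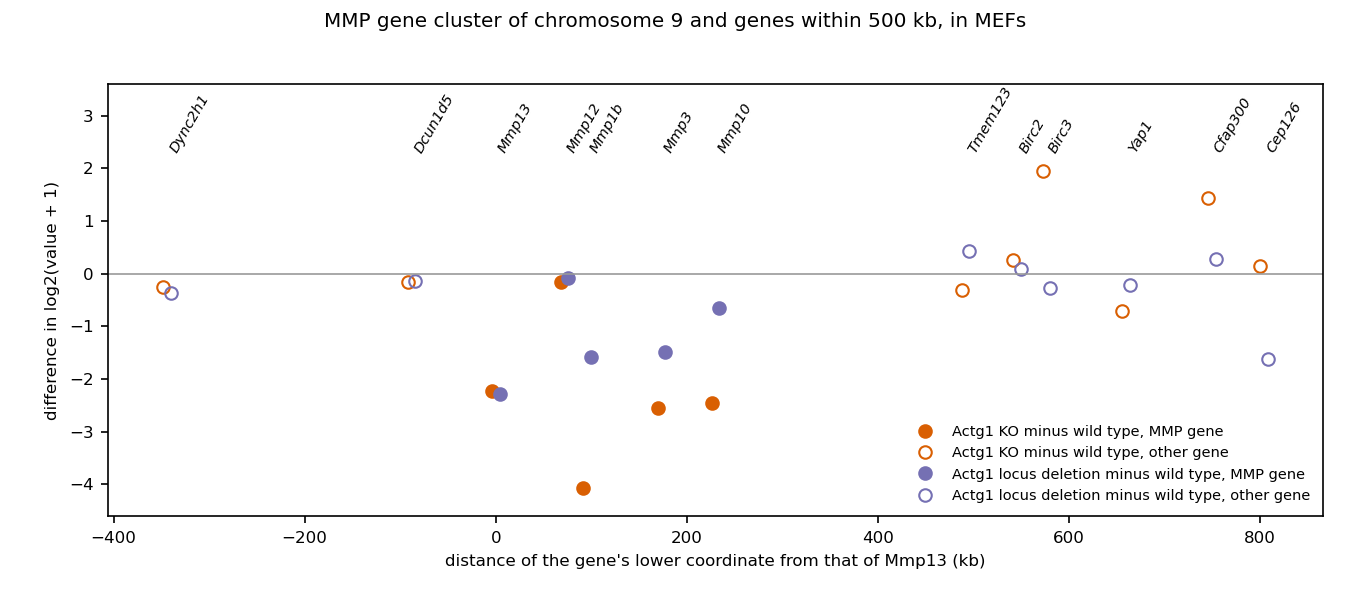
Difference in log2(value + 1) from wild-type MEFs (vertical axis) for genes of the chromosome 9 MMP cluster (filled circles) and for other genes within 500 kb of it (open circles), against the distance in kb from Mmp13 (horizontal axis), for Actg1 KO and for locus-deleted cells. Of the MMP genes, 4 lie between -0.65 and -4.08 and Mmp12 near 0, while the other genes lie on both sides of 0.

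The stretches of 100 bases before the annotated starts of these 4 genes are printed because the genes fell and lie in 1 cluster, and because each holds the letters TGANTCA, the site bound by AP-1, a transcription factor made of Fos and Jun family proteins. They come from RefSeq (GRCm38.p6), read 5′ to 3′ on the gene's strand, and lie at chr9:7272414-7272513 on the plus strand for Mmp13, chr9:7388027-7388126 on the minus strand for Mmp1b, chr9:7445722-7445821 on the plus strand for Mmp3 and chr9:7502242-7502341 on the plus strand for Mmp10. Capitals mark matches to TGANTCA and to TATAAA.
Mmp13: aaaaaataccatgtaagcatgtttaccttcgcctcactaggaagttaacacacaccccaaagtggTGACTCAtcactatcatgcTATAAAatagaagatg
Mmp1b: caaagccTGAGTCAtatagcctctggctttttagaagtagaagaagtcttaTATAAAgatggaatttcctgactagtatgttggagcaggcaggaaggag
Mmp3: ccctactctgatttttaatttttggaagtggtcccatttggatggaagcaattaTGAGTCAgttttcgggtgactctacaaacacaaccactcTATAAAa
Mmp10: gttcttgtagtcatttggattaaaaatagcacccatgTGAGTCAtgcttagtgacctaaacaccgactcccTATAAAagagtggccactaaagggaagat

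The TGANTCA match begins 35 bases before the start in Mmp13, 93 in Mmp1b, 46 in Mmp3 and 63 in Mmp10. Promoter sequences were at hand for 36 of the 58 members, and among them the windows of Mmp12 and Adam19 also held the motif within 250 bases before the start, searched on both strands. That made 6 of 36 members, or 16.7%, beside 7.82% of 27025 genes and 6.75% of 32851 promoters. TATAAA was in the windows of 6 of 36 members, or 16.7%, beside 14.3% of genes and 12.4% of promoters. A match is a description of the sequence and not a measure of binding. Of the 8 AP-1 subunit genes, 5 rose and 3 fell in KO MEFs, against 20.6% and 19.1% of all genes. Fosl1 averaged 806.0 in KO against 1831.5 in wild type and Jun 3360.0 against 4477.0, while Junb averaged 1799.5 against 877.5 and Fosl2 4709.0 against 2831.5. In locus-deleted MEFs none rose and 2 fell, against 9.46% and 12.6% of all genes. The 2 were Jun (2219.0 against 4477.0 in wild type) and Jund (97.5 against 132.5).

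The gelatinases, which cut denatured and basement membrane collagen, went the other way in KO MEFs. Mmp2 had 2790 and 2889 counts in KO and 648 and 674 in locus-deleted cells, against 545 and 481 in wild type. The KO libraries stood more than 4-fold above all others, and the locus-deleted ones lay just above wild type. Mmp2 rose by 2.47 ± 0.08 in KO (limma, adjusted p = 1.2e-06) and by 0.37 ± 0.08 in locus-deleted cells (adjusted p = 0.0137). The second call was lost without wild-type library 2 or without either locus-deleted library (adjusted p up to 0.0929). Mmp9 had 44 and 40 counts in KO and 1 in each locus-deleted library, against 2 and 1 in wild type, so that only the KO libraries held more than a few reads, and it rose in KO (limma, adjusted p = 0.000274).

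Among the membrane-type MMPs, which are anchored at the cell surface, Mmp14, the activator of pro-MMP2, had 6538 and 6430 counts in KO and 3624 and 3705 in locus-deleted MEFs, against 4759 and 4206 in wild type. It stood highest in KO and lowest in locus-deleted cells without overlap: it rose by 0.54 in KO and fell by 0.29 in locus-deleted cells (limma, adjusted p = 0.000602 and 0.0211), and the mutants differed by 0.82 (adjusted p = 5.22e-05). The KO call was lost without KO library 1 (adjusted p = 0.0517). The locus-deletion call was lost without wild-type library 1 or either locus-deleted library (up to 0.125), and with chromosome 14 centred on its median of -0.205 (difference -0.06, adjusted p = 0.56).
Mmp16, also of the membrane type, had 1038 and 1083 counts in KO and 492 and 509 in locus-deleted cells, against 947 and 1011 in wild type, so that only the locus-deleted libraries stood apart. It fell by 0.97 there (limma, adjusted p = 0.000127), where the median over chromosome 4 genes was -0.492, and by 0.48 with chromosomes centred (adjusted p = 0.000796).
Mmp17, held by a lipid anchor, had 68 and 60 counts in KO and 13 and 24 in locus-deleted cells, against 11 and 25 in wild type. Only the KO libraries were high, with a rise of 1.88 (limma, adjusted p = 0.0114) that was lost without wild-type library 1 or either KO library (up to 0.186). Mmp24 had 11 and 8 counts in KO and 12 and 10 in locus-deleted cells, against 23 and 19 in wild type. Its fall in KO (difference -1.08, limma, adjusted p = 0.0475) was lost without any 1 of the 4 libraries (adjusted p up to 0.155) and with chromosome 2 centred on its median of -0.528 (adjusted p = 0.33), and 13.6% of its exon bases overlap a gene on the other strand.

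Of the secreted MMPs outside these groups, Mmp28, or epilysin, had 56 and 58 counts in KO and 20 in each locus-deleted library, against 48 and 41 in wild type. The locus-deleted libraries were the low ones, with a fall of 1.11 (limma, adjusted p = 0.0114) that was lost without wild-type library 1 (0.0754). Mmp11 and Mmp19 were called in neither mutant against wild type.

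The inhibitors did not follow the collagenases in KO MEFs. Timp1, a soluble inhibitor that acts weakly on most membrane-type MMPs, had 5303 and 5481 counts in KO and 2772 and 2248 in locus-deleted MEFs, against 3366 and 3351 in wild type, with the KO highest and the locus deletion lowest. It rose by 0.68 ± 0.09 in KO (limma, adjusted p = 0.000847) and fell by 0.43 ± 0.09 in locus-deleted cells (adjusted p = 0.0152). The KO call was lost without either KO library (adjusted p up to 0.0751) and the other without either wild-type library (up to 0.152), while the difference of 1.11 between the mutants was called in every case (limma, adjusted p = 5.48e-05, and at most 0.0272 with 1 library left out).
Timp2, which with Mmp14 takes part in the activation of pro-MMP2, had 9464 and 9890 counts in KO and 3207 and 3861 in locus-deleted cells, against 8669 and 8175 in wild type. Locus-deleted libraries held less than those of either other group, a fall of 1.26 ± 0.09 (limma, adjusted p = 0.000111), and the KO was not called apart from wild type (difference 0.20, adjusted p = 0.114), except when libraries were scaled without genes over 1% of the total (0.28, adjusted p = 0.00839) or when the locus-deleted libraries were left out of the fit (adjusted p = 0.0365).
Timp3, the matrix-bound inhibitor, had 11964 and 12589 counts in KO and 7339 and 7480 in locus-deleted cells, against 13600 and 12159 in wild type. The KO overlapped wild type (difference -0.07, limma, adjusted p = 0.478), and this difference was 0.02 under the scaling without genes over 1% and -0.19, with an adjusted p of 0.0312, with chromosomes centred. The locus deletion lay below both, with a fall of 0.80 ± 0.07 from wild type (limma, adjusted p = 0.000249). Timp3 shares 21.3% of its exon bases with Syn3 on the other strand, whose values in MEFs were 4 to 17.

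**Figure D3:**
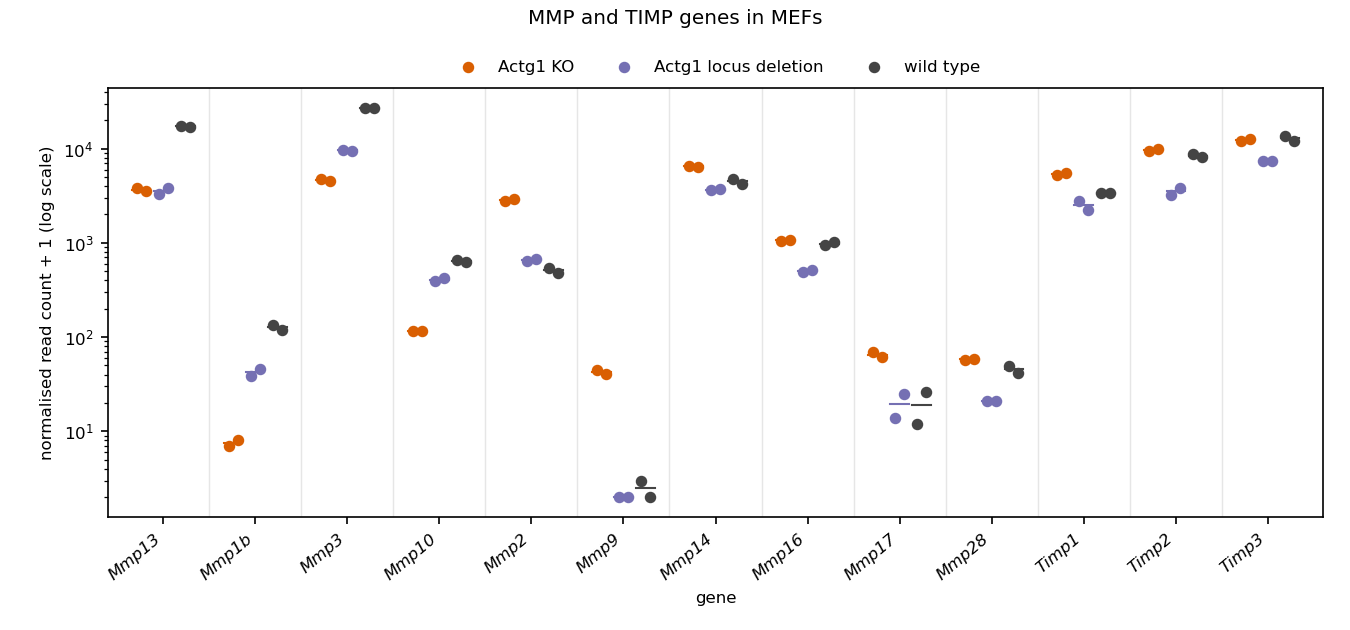
Normalised read counts plus 1 (log scale) of 13 MMP and TIMP genes in MEFs, with 1 point per library and a bar at the mean, for Actg1 KO, Actg1 locus deletion and wild type from left to right in each gene. Mmp13, Mmp1b, Mmp3 and Mmp10 are lower in both mutants, Mmp2 and Mmp9 are high in the KO, and all 3 Timp genes are lowest in the locus deletion.

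Summed per kilobase of exon, the MMP genes reached 6369 and 6205 in KO and 7922 and 8033 in locus-deleted MEFs, against 23340 and 22980 in wild type, and Mmp3 and Mmp13 held most of each sum. The TIMP genes summed to 9870 and 10260 in KO and to 4846 and 4441 in locus-deleted cells, against 7686 and 7365 in wild type. The MMP sum was therefore 0.645 and 0.605 of the TIMP sum in KO and 1.63 and 1.81 of it in locus-deleted cells, against 3.04 and 3.12 in wild type. These ratios describe messenger RNA of unequal enzymes and were not tested.

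The ADAMTS genes were the group with most rises in KO MEFs. Adamts9, which cuts versican and aggrecan, had 399 and 428 counts in KO and 0 and 1 in locus-deleted MEFs, against 3 and 0 in wild type, and Adamts20, its closest relative, had 175 and 175 in KO and 3 and 1 in locus-deleted cells, against 7 and 6 in wild type. Both genes were at the level of a few reads outside the KO libraries, and both rose in KO (limma, adjusted p = 9.63e-05 and 0.000108). Against the locus deletion, Adamts20 was higher in KO by 5.96 on the log2(value + 1) scale (limma, adjusted p = 2.19e-05). The fall of Adamts20 from wild type in locus-deleted cells, between values of a few reads, had an adjusted p of 0.0474 and was lost without either wild-type library or without locus-deleted library 2 (up to 0.207) and with a pseudocount of 0.5 or 5.

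The procollagen-processing members remove the amino-terminal propeptide of fibrillar collagens. Adamts2 had 335 and 328 counts in KO and 130 and 128 in locus-deleted MEFs, against 98 and 116 in wild type, with only the KO far above the rest. It rose in KO by 1.63 ± 0.13 (limma, adjusted p = 5.12e-05). Adamts14 had 123 and 136 counts in KO and 3 and 6 in locus-deleted cells, against 5 and 15 in wild type, again high only in KO. Its rise of 3.73 (limma, adjusted p = 0.000873) was lost without either KO library (up to 0.0731), while it was called against the locus deletion in each such fit. The fibrillar collagen genes Col1a1 and Col1a2 rose in the same cells, with Col1a1 at 88047.5 in KO against 14167.0 in wild type.

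Adamts12, one of the pair known to cut cartilage oligomeric matrix protein (COMP), had 721 and 741 counts in KO and 240 and 216 in locus-deleted cells, against 162 and 163 in wild type. The 3 groups did not overlap, with rises of 2.16 ± 0.09 in KO and 0.48 ± 0.09 in locus-deleted cells (limma, adjusted p = 4.71e-06 and 0.00929), the smaller of which was lost without either wild-type library (up to 0.074). Adamts7, the other of the pair, was lower by 0.41 and 0.45 (limma, adjusted p = 0.0414 and 0.0475), calls that were lost without any 1 of the 4 libraries of a comparison (up to 0.239), and in KO with chromosome 9 centred. Adamts6, related to fibrillin deposition, had 438 and 445 counts in KO and 1242 and 1311 in locus-deleted MEFs, against 634 and 639 in wild type. It lay below wild type in KO and above it in locus-deleted cells, with a fall of 0.53 and a rise of 1.00 (limma, adjusted p = 0.00064 and 9.26e-05), and the mutants differed by -1.53 (adjusted p = 3.02e-06). Its relative Adamts10 was higher by 0.28 in KO and by 0.40 in locus-deleted cells (limma, adjusted p = 0.0489 and 0.023). The KO call was lost without any 1 of the 4 libraries (up to 0.217) and the other without either wild-type library or locus-deleted library 1 (up to 0.154).

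The other proteoglycan-cleaving members gave smaller differences in MEFs. Adamts5, a main aggrecanase of mouse cartilage, had 425 and 445 counts in KO and 692 and 833 in locus-deleted MEFs, against 778 and 790 in wild type. It fell in KO by 0.85 ± 0.10 (limma, adjusted p = 0.000348), and the median over chromosome 16 genes in this comparison was also -0.847; with chromosomes centred the difference was -0.01 (adjusted p = 0.966). Adamts1 had 944 and 978 counts in KO and 512 and 551 in locus-deleted cells, against 997 and 977 in wild type, so that the locus deletion stood alone with a fall of 0.89 ± 0.07 (limma, adjusted p = 0.000172). Adamts1 lies on chromosome 16 too. With chromosomes centred the locus deletion differed from wild type by -1.01, and the KO lay above the locus deletion by 1.81, beside 0.85 uncentred. On the centred scale the KO thus lay above wild type, and the locus deletion no longer stood alone. Adamts4 was higher in KO by 0.64 (limma, adjusted p = 0.0193), a call lost without any 1 of the 4 libraries (up to 0.161).
The orphan members, whose substrates are less well known, were near the detection level. Adamts18 had 18 and 15 counts in KO and 7 and 9 in locus-deleted cells, against 1 and 3 in wild type. Both mutants lay above wild type without overlap (limma, adjusted p = 0.00382 and 0.0468), and the calls were lost without either KO library (up to 0.0709) and, in the locus deletion, without any 1 of the 4 libraries (up to 0.166) and with chromosomes centred (0.0535). Adamts16 had 7 and 14 counts in KO and 0 and 4 in locus-deleted cells, against 0 and 0 in wild type. This is at least 3.57-fold higher in KO than the value of 3 reads per library, with an adjusted p of 0.0112 (limma) that rose to as much as 0.172 without any 1 of the 4 libraries.

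**Figure D4:**
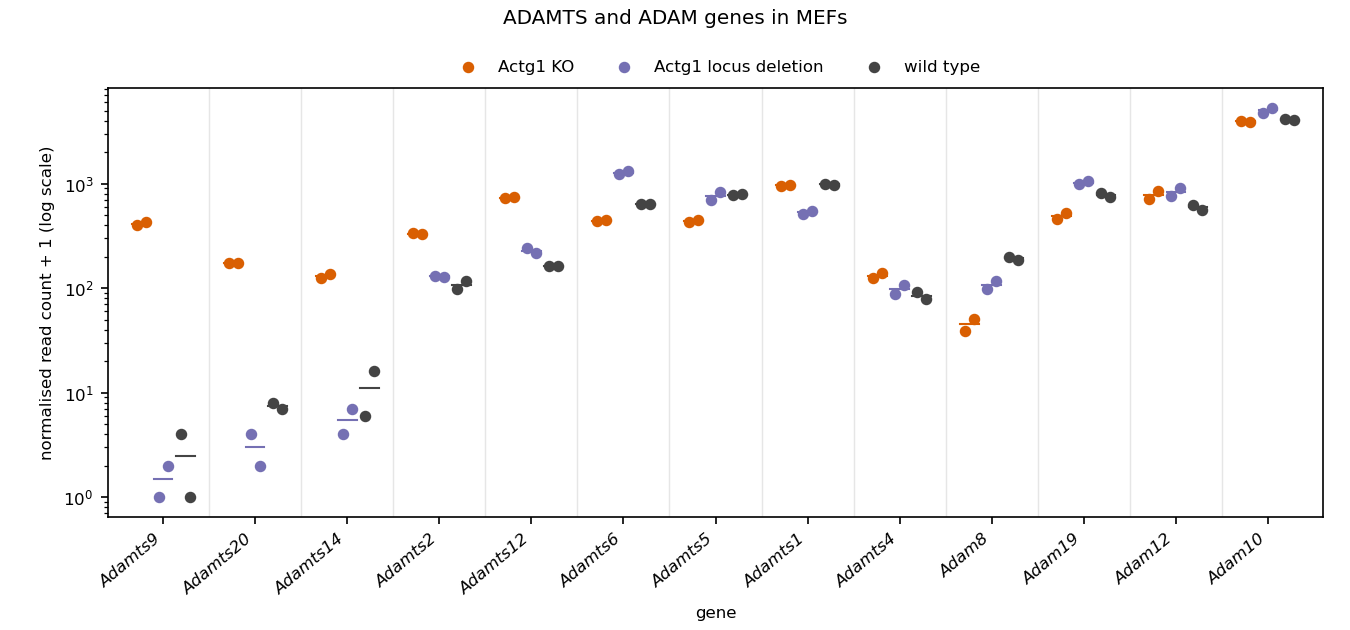
Normalised read counts plus 1 (log scale) of 13 ADAMTS and ADAM genes in MEFs, with 1 point per library and a bar at the mean, for Actg1 KO, Actg1 locus deletion and wild type from left to right in each gene. Adamts9, Adamts20 and Adamts14 reach 123 to 428 in the KO libraries and at most 15 in the others, while Adamts6 and Adam19 are lowest in the KO and highest in the locus deletion.

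Of 15 membrane-bound ADAM genes in MEFs, 2 rose and 2 fell in KO, or 26.7%, beside 39.7% of all genes. In locus-deleted cells 3 rose and 1 fell, the same share, beside 22.0% of all genes. Adam8, a sheddase best known from leukocytes, had 38 and 50 counts in KO and 97 and 116 in locus-deleted cells, against 198 and 187 in wild type, and stood in that order without overlap. It fell by 2.12 ± 0.19 in KO and by 0.85 ± 0.19 in locus-deleted cells (limma, adjusted p = 9.09e-05 and 0.0147), the second call being lost without any 1 of the 4 libraries (up to 0.134). Adam19, or meltrin beta, had 463 and 519 counts in KO and 991 and 1051 in locus-deleted cells, against 821 and 738 in wild type. It fell by 0.67 in KO and rose by 0.39 in locus-deleted cells (limma, adjusted p = 0.00076 and 0.0182), the second call again lost without any 1 of the 4 libraries (up to 0.145), and the mutants differed by -1.06 (adjusted p = 5.58e-05).
Adam12, or meltrin alpha, was higher by 0.39 in KO and by 0.49 in locus-deleted cells (limma, adjusted p = 0.0382 and 0.028), and both calls were lost without any 1 of the 4 libraries (up to 0.331) and with chromosomes centred (0.0656 and 0.103). Adam10, the sheddase of Notch, was higher by 0.29 in locus-deleted cells (limma, adjusted p = 0.0185), a call lost without either wild-type library (up to 0.136), and was not called in KO. Adam1a was higher in KO by 0.86 (limma, adjusted p = 0.0366), lost without any 1 of the 4 libraries (up to 0.234) and with chromosomes centred (0.0633), and 63.7% of its exon bases lie in another annotated gene. Adam9 and Adam17, the sheddase of tumour necrosis factor and of ligands of the epidermal growth factor (EGF) receptor, differed from wild type by -0.06 to 0.09 in the mutants and were not called.

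Of the 26 calls in KO MEFs, 14 were made in every fit that left out 1 library, and of the 22 in locus-deleted MEFs 8 were. The 14 were Mmp2, Mmp3, Mmp9, Mmp10, Mmp13, Mmp1b, Adamts2, Adamts5, Adamts6, Adamts9, Adamts12, Adamts20, Adam8 and Adam19. The 8 were Mmp3, Mmp10, Mmp13, Mmp16, Timp2, Timp3, Adamts1 and Adamts6. Mmp1b in the locus deletion was lost without wild-type library 1 (adjusted p = 0.0583).

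Related genes in MEFs were counted by list. Over all genes, 20.6% rose and 19.1% fell in KO, and 9.46% rose and 12.6% fell in locus-deleted cells. Of 6 activators of these enzymes in the table, 1 rose and 3 fell in KO, with the plasminogen activator gene Plau at 254.0 in KO against 616.5 in wild type and Plat at 866.0 against 318.0. Of the same 6, 3 rose and 1 fell in locus-deleted cells, with Plau at 1182.0 against 616.5 in wild type. Of 5 genes for other inhibitors and for clearance, 4 rose and 1 fell in KO, and none rose and 3 fell in locus-deleted cells. Reck, a membrane-anchored inhibitor of MMPs, averaged 160.0 in KO and 45.5 in locus-deleted cells, against 105.5 in wild type. The procollagen C-proteinase Bmp1 averaged 1259.0 in KO against 716.5 in wild type.
Markers of cell identity moved in the KO as well. Dcn averaged 7845.0 in KO and 8.5 in locus-deleted cells, against 15.5 in wild type, Lum 4531.5 and 0.5, against 8.5, and Sox2 1316.0 and 0.0, against 38.0. Of the 8 fibroblast markers 5 rose and 1 fell in KO, against 20.6% and 19.1% of all genes. In locus-deleted cells none rose and 4 fell, against 9.46% and 12.6% of all genes. Their part in the differences of the metalloprotease genes was not tested.

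In Kindlin-2 KO MKFs, 27 of 39 members changed, 10 rising and 17 falling, against 49.2% of all genes (24.3% rose and 24.9% fell). Mmp2 and a set of Adamts genes went to a few reads or none, Timp1, Timp3 and Adamts5 rose, and Adamts1, the member with the highest level, was not called. The median over the members was -0.07, also with the 3 genes that were at 0 in both KO libraries set at their bounds, beside 0.01 over all genes. With 1 library left out, 1 group rests on a single library and fewer degrees of freedom are left. A call could then be lost with hardly any change in the difference. In such fits the difference ranged from -9.68 to -8.68 for Mmp2, whose call was lost in some. It ranged from 1.89 to 2.04 for Timp3, from 1.79 to 1.86 for Adamts5 and from -2.81 to -2.59 for Adam5, a gene of a few reads. These 3 kept their calls.

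Mmp2 had 1 and 0 counts in Kindlin-2 KO, against 823 and 817 in floxed MKFs. Its values in the KO were at the level of a single read, so no fold is given, and it fell with an adjusted p of 0.000125 (limma), or 0.0527 without either floxed library. It had been the fifth member by level per kilobase in floxed cells, at 243.0 ± 1.26. The collagenase Mmp8 had 1 and 1 counts in KO, against 10 and 7 in floxed cells, and Mmp19, a secreted MMP, 8 and 7, against 31 and 23. Both were lower in both KO libraries than in either floxed library (limma, adjusted p = 0.0101 and 0.00695), calls that were lost without either KO library for Mmp8 (up to 0.0786) and without any 1 of the 4 for Mmp19 (up to 0.1). Mmp19 shares 22.3% of its exon bases with Tmem198b on the other strand. Mmp11, or stromelysin-3, fell by 0.80 (limma, adjusted p = 0.00782), and the call was lost without either floxed library or KO library 2. With chromosome 10 centred on its median of -0.381, its difference was -0.42 (limma, adjusted p = 0.044).
Rises were seen for membrane-type members and for 1 stromelysin. Mmp14 rose by 0.27 (limma, adjusted p = 0.0194), a call lost without any 1 of the 4 libraries (up to 0.133). Mmp25, held by a lipid anchor, had 20 and 20 counts in KO, against 7 and 4 in floxed cells, with no overlap and a rise of 1.73 (limma, adjusted p = 0.0133), lost without floxed library 2 or either KO library (up to 0.148). Mmp10 had 6 and 6 counts in KO, against 1 and 0 in floxed cells (limma, adjusted p = 0.0209), a difference of a few reads that was lost without either KO library (up to 0.16).

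Among the inhibitors, Timp3 had 2623 and 2564 counts in KO, against 632 and 699 in floxed MKFs. The KO libraries were nearly 4-fold higher, at 390.0% of the floxed mean, a rise of 1.96 ± 0.06 (limma, adjusted p = 7.73e-05). Timp1 had 216 and 204 counts in KO, against 105 in each floxed library, a rise of 0.99 ± 0.09 (adjusted p = 0.000961) that lost its call without either floxed library (0.0527). Timp2, the inhibitor with the highest level, had 3235 and 3378 counts in KO, against 3112 and 3100 in floxed cells. It lay slightly higher in KO without being called (difference 0.09, adjusted p = 0.119), and the difference was -0.03 with chromosomes centred. Summed per kilobase, the MMP genes were 0.103 and 0.0917 of the TIMP genes in KO, against 0.391 and 0.38 in floxed cells, values that were not tested.

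Of 11 Adamts genes in MKFs, 2 rose and 8 fell, or 90.9%, beside 49.2% of all genes. Adamts9 had 1 and 0 counts in KO, against 137 and 145 in floxed cells, and Adamts16 had 0 and 0, against 36 and 44. Both were at or near 0 in KO: Adamts16 was at least 13.7-fold lower than in floxed cells, counted against 3 reads per library (limma, adjusted p = 0.000399), and the call of Adamts9 (adjusted p = 0.000344) was lost without either floxed library (up to 0.0618). Adamts14 had 1 and 2 counts in KO, against 43 and 25, and Adamts3, which also processes the lymphatic growth factor VEGF-C, had 1 and 0, against 9 and 6. These 2 procollagen-processing members fell too (limma, adjusted p = 0.00204 and 0.0165), and both calls were lost without any 1 of the 4 libraries (up to 0.159).
Adamts6 had 178 and 161 counts in KO, against 974 and 1013 in floxed cells, and Adamts4, an aggrecanase, had 39 and 47, against 223 and 209. They averaged 17.1% and 19.9% of the floxed mean without overlap, with falls of 2.55 ± 0.07 and 2.31 ± 0.14 (limma, adjusted p = 6.25e-05 and 0.000309). The call of Adamts4 was lost without either floxed library (up to 0.0555). Adamts7 had 36 and 45 counts in KO, against 84 and 80, a fall of 1.01 (limma, adjusted p = 0.00711), and Adamts10 fell by 0.76 (adjusted p = 0.0355). With chromosome 9 centred on its median of -0.458, the difference for Adamts7 was -0.56 (limma, adjusted p = 0.0355). The Adamts7 call was lost without either floxed library or KO library 1 (up to 0.125) and that of Adamts10 without any 1 of the 4 (up to 0.299).
Against these falls, Adamts5 had 3556 and 3642 counts in KO, against 1043 and 989 in floxed MKFs, more than 3-fold higher in both KO libraries. It rose by 1.82 ± 0.05 (limma, adjusted p = 5.23e-05), and by 1.49 with chromosomes centred. Adamts1 had 11681 and 11839 counts in KO, against 11472 and 11384, and was not called (difference 0.04, adjusted p = 0.324). Adamts17 had 6 and 8 counts in KO, against 0 and 1 (limma, adjusted p = 0.0172), a rise of a few reads lost without any 1 of the 4 libraries (up to 0.16).

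**Figure D5:**
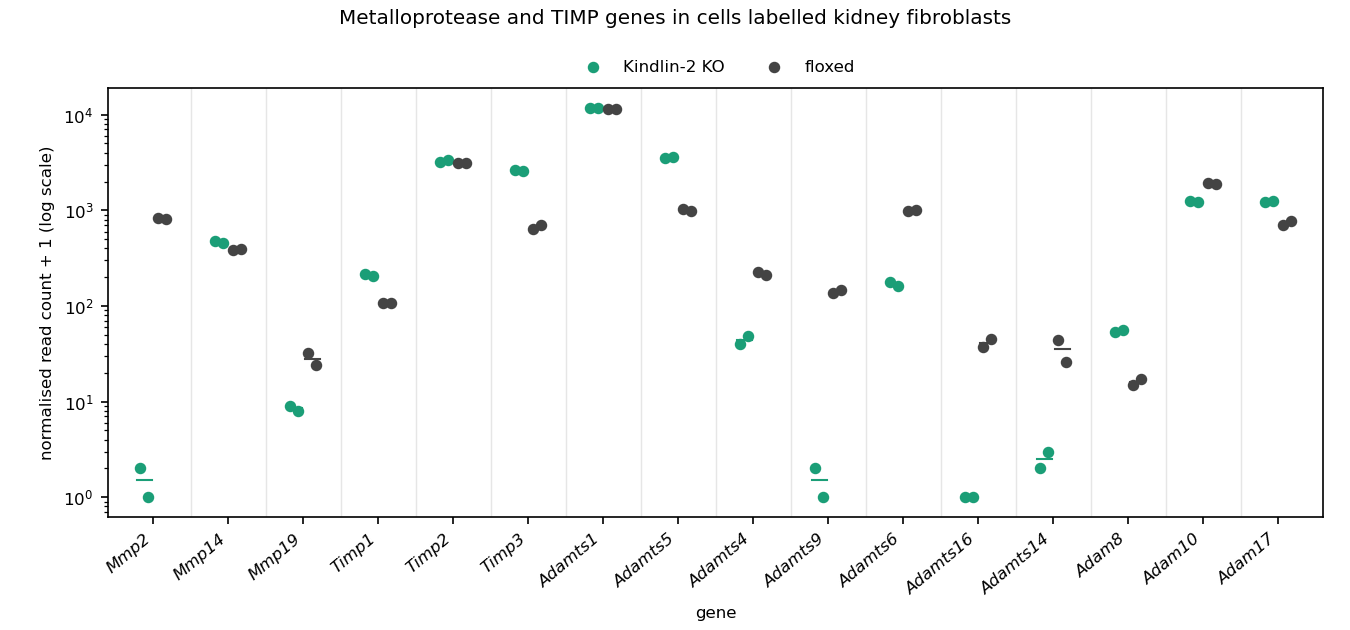
Normalised read counts plus 1 (log scale) of 16 metalloprotease and TIMP genes in cells labelled kidney fibroblasts, with 1 point per library and a bar at the mean, Kindlin-2 KO on the left and floxed on the right in each gene. Mmp2, Adamts9, Adamts16 and Adamts14 lie at 0 to 2 in KO, Timp3 and Adamts5 are higher in KO, and Adamts1 and Timp2 lie at the same height in both.

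Of 14 Adam genes in MKFs, 3 rose and 5 fell, or 57.1%, beside 49.2% of all genes. Adam8 had 52 and 55 counts in KO, against 14 and 16 in floxed cells, a rise of 1.77 ± 0.19 without overlap (limma, adjusted p = 0.00178, lost without either KO library at up to 0.0552). Adam17 had 1207 and 1265 counts in KO, against 701 and 769, and rose by 0.75 (limma, adjusted p = 0.000868), while the median over chromosome 12 genes was 0.688; with chromosomes centred its difference was 0.07 (adjusted p = 0.373), and the call was also lost without floxed library 1 or either KO library (up to 0.0711). Adam10 had 1250 and 1216 counts in KO, against 1910 and 1870, and fell by 0.62 (limma, adjusted p = 0.000436), where the median over chromosome 9 genes was -0.458; centred, it was lower by 0.17 (adjusted p = 0.0214). Adam9 fell by 0.39 (limma, adjusted p = 0.00292), lost without either floxed library (up to 0.102).
The members without a working protease site, which serve as receptors in nervous tissue, were low in MKFs. Adam11 had 24 and 25 counts in KO, against 12 and 8 in floxed cells, Adam22 was lower by 0.75, and Adam23 had 0 and 0, against 3 and 6. All 3 were called (limma, adjusted p = 0.0216, 0.0384 and 0.0189), and all lost the call with a library left out, Adam11 and Adam22 without any 1 of the 4 (up to 0.171 and 0.233) and Adam23 without either KO library (up to 0.123). Adam23 was at least 1.55-fold lower in KO. Adam5, known from sperm, had 0 and 0 counts in KO, against 6 and 5, at least 1.89-fold lower (limma, adjusted p = 0.00798).

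The counts of related genes in MKFs stand beside 24.3% of all genes that rose and 24.9% that fell. Of 6 activators in the MKF table, 5 rose and 1 fell, with Plau at 1879.5 in KO against 144.5 in floxed cells, Plat at 2044.5 against 797.0 and the receptor gene Plaur at 723.0 against 313.0. Of 5 genes for other inhibitors and clearance, none rose and 4 fell, among them Lrp1, an endocytic receptor that takes up several of these enzymes, at 790.0 against 3760.0. Of 11 ligands and receptors known to be shed by ADAMs, 9 rose and 1 fell, among them the EGF receptor ligands Areg at 543.0 against 33.5, Ereg at 555.5 against 66.5 and Tgfa at 419.5 against 54.5. Epithelial markers rose in the same cells, all 4 of 4, summing to 19200 and 19698 in KO, against 2045 and 2187 in floxed cells. Epcam averaged 3415.5 against 18.5 and Cdh1 1465.0 against 13.0, no marker of the list being at 0. Their part in the differences of the metalloprotease genes was not tested.

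In ESCs few members were called. In simulated data the fit called 50% of 2-fold changes in ESCs, against 95% in MEFs and 77% in MKFs, so a gene without a call may still have changed. In Actb KO ESCs 1 of 45 rose and 2 fell, against 4.88% of all genes (2.44% rose and 2.44% fell), and in locus-deleted ESCs 4 rose and 6 fell, against 11.2% of all genes (5.19% rose and 6.0% fell). The share of members called in KO was 6.67%, close to that of all genes, and in locus-deleted cells it was 22.2%. The median difference over members was 0.04 in KO and -0.21 in locus-deleted cells, beside 0.00 and 0.01 over all genes. Both comparisons share the wild-type libraries. Between KO and locus-deleted ESCs, 5 members differed, 2 higher and 3 lower in KO, against 4.88% of all genes (2.56% higher and 2.32% lower).

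Adam23, which lacks a working protease site, had 847 and 833 counts in KO and 657 and 617 in locus-deleted ESCs, against 222 and 269 in wild type. The 3 groups did not overlap, and the differences from wild type were 1.78 ± 0.13 and 1.38 ± 0.13 (limma, adjusted p = 0.000438 and 0.00079). Adam19 had 940 and 939 counts in KO and 2361 and 2171 in locus-deleted ESCs, against 1102 and 946 in wild type. Only the locus-deleted libraries stood apart, with a rise of 1.15 ± 0.11 (limma, adjusted p = 0.000961), and KO lay below them by 1.27 (adjusted p = 0.00128). Adam32, known from testis, had 61 and 70 counts in KO and 10 and 13 in locus-deleted cells, against 58 and 68 in wild type, a fall of 2.36 ± 0.26 in the locus deletion (limma, adjusted p = 0.00143). It lies on chromosome 8, whose median there was -0.402, and its difference was -1.95 with chromosomes centred (limma, adjusted p = 0.00236).

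The Adamts calls in ESCs concerned 3 genes. Adamts14 had 23 and 29 counts in KO and 47 and 30 in locus-deleted cells, against 76 and 100 in wild type, with all mutant libraries below wild type (differences -1.72 and -1.19, limma, adjusted p = 0.0173 and 0.0362). Adamts7 had 118 and 89 counts in KO and 272 and 223 in locus-deleted cells, against 70 and 81 in wild type. Adamts8, which cuts aggrecan, had 139 and 109 counts in KO and 246 and 231 in locus-deleted cells, against 138 and 109. For both, only the locus deletion was called, with rises of 1.70 and 0.95 (limma, adjusted p = 0.002 and 0.0154), and the KO lay below the locus deletion by 1.26 and 0.95 (adjusted p = 0.0122 and 0.0266). Adamts9, at 1053 and 1092 counts in KO, 1102 and 1092 in locus-deleted cells and 974 and 975 in wild type, was not called.

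The MMP calls in ESCs were falls. Mmp15, of the membrane type, had 87 and 79 counts in KO and 108 and 104 in locus-deleted cells, against 149 and 171 in wild type, and fell in KO by 0.94 ± 0.17 (limma, adjusted p = 0.021). It lies on chromosome 8, whose median was -0.346 in KO and -0.402 in locus-deleted ESCs while all other chromosomes lay between -0.05 and 0.10; with chromosomes centred its difference in KO was -0.60 (adjusted p = 0.101). Mmp2, on the same chromosome, had 17 and 22 counts in KO and 9 and 8 in locus-deleted cells, against 48 and 30 in wild type, with a fall of 2.04 ± 0.36 in the locus deletion (limma, adjusted p = 0.00954) and of 1.63 with chromosomes centred (adjusted p = 0.0197).
Mmp14 had 181 and 175 counts in KO and 87 and 98 in locus-deleted cells, against 162 and 214 in wild type, and Mmp17 had 190 and 157 in KO and 123 and 89 in locus-deleted cells, against 304 and 229. Both fell in the locus deletion, by 1.00 and 1.33 (limma, adjusted p = 0.0107 and 0.00718), and for Mmp14 the KO was higher than the locus deletion by 0.94 (adjusted p = 0.0246).
Of the inhibitors, Timp1 had 174 and 156 counts in KO and 166 and 171 in locus-deleted cells, against 159 and 114 in wild type, and was called in neither (limma, adjusted p = 0.448 and 0.328). Timp2 had 25 and 21 counts in KO and 9 and 11 in locus-deleted cells, against 39 and 24 in wild type, and fell in the locus deletion by 1.53 ± 0.35 (adjusted p = 0.0285). Timp3 had 75 and 117 counts in KO and 53 and 62 in locus-deleted cells, against 24 and 49 in wild type. It was higher in both KO libraries than in either wild-type library, with a difference of 1.42 (limma, adjusted p = 0.0631), which was called with the replicate number as a block (adjusted p = 0.0108) and with only genes of a mean of at least 10 (0.0472).

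With 1 library left out, every called ESC difference kept its sign. That of Adam23 in KO ranged from 1.64 to 1.915, and that of Timp2 in the locus deletion from -1.87 to -1.19. Every ESC call was still lost when at least 1 library was left out, in fits with fewer degrees of freedom. In KO against wild type none of the 3 remained without any 1 of the 4 libraries (adjusted p 0.059 to 0.272). In the locus deletion none was left without wild-type library 1, 1 without wild-type library 2, and 3 and 4 without locus-deleted libraries 1 and 2 (adjusted p up to 0.222), and in KO against locus deletion none was left without any 1 of the 4. With the replicate number as a block, 1850 genes in all were called in KO, against 1126 without it, and 5 members were, Mmp17 (adjusted p = 0.0349) and Timp3 being added, and in the locus deletion Mmp15 (0.0467), Adam1a (0.0406) and Adam11 (0.0358) were added. Between KO and locus deletion the block added Adam9 (0.02) and Mmp17 (0.0179), with 1735 genes called in all, against 1125 without it. Fibroblast markers, 4 of 8 in the table, summed to 84 and 103 in KO and 60 and 52 in locus-deleted ESCs, against 143 and 136 in wild type. Other marker lists moved as well. The 4 epithelial markers summed to 9597 and 9561 in KO and 7708 and 7555 in locus-deleted ESCs, against 12859 and 12372 in wild type. Of the 4, 2 rose and 1 fell in KO, against 2.44% of all genes in each direction. Their median difference in KO was 1.06, so the lower sum does not describe each gene. In the locus deletion none rose and 3 fell, against 5.19% and 6.0% of all genes. The 3 endothelial markers summed to 1385 and 1456 in KO and 1061 and 1113 in locus-deleted cells, against 1950 and 1898. None of the 3 rose and 1 fell in each mutant, with median differences of 0.634 in KO and -0.5 in the locus deletion. The macrophage and blood markers, 3 of 6 in the table, summed to 2038 and 1942 in KO and 1390 and 1276 in locus-deleted cells, against 1103 and 970. The part of these cell markers in the differences of the metalloprotease genes was not tested.

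Over the 5 comparisons of a mutant with its control, 47 of the 58 members were called at least once. Single comparisons called 4.88% to 49.2% of all genes. The share of all genes called at least once was not counted, so the 47 cannot be read as particular to the members. The 11 members called in none of the 5 are Adam15, Adam1b, Adam21, Adam3, Adam33, Adam4, Adamts15, Adamts19, Mmp12, Mmp21 and Mmp23. Mmp2 shows how far 1 member could range: its difference from the control was -2.04 in locus-deleted ESCs and 2.47 in Actg1 KO MEFs, and it was at 1 and 0 counts in Kindlin-2 KO MKFs, against 823 and 817 in floxed cells. Adamts9 was at 399 and 428 in Actg1 KO MEFs, against 3 and 0 in wild type, and at 1 and 0 in Kindlin-2 KO MKFs, against 137 and 145 in floxed cells. Differences between cell types in these responses were not tested, since the tables were normalised separately and hold different mutations.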

How the data were processed

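Total RNA of 16 mouse cell samples was sequenced from libraries made with a SMARTer stranded kit, per the labels' protocols. Tools listed, without their roles, in the submitters' processing notes are STAR 2.5.3a, featureCounts 1.6.0 of the Subread package, FastQC and DESeq2 1.14.1. The builds listed are mm10 and GRCm38. The sources used here do not give whether reads were counted by strand. Each deposited value is a whole-number score. From the values, the authors appear to have divided read counts by a factor for each library and rounded the quotients, with 1 read worth 0.714 to 1.297. The scores are called normalised read counts here and, being rounded, were not given to a count test. Each of the 3 tables was normalised on its own.

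Genes were matched by identifier to GENCODE M21 (GRCm38). Values were put on the log2(value + 1) scale, genes with a mean of at least 1 were kept, and all groups of a table were fitted together with limma 3.58.1 (R 4.3.3; trended variance; Benjamini-Hochberg adjustment over all genes tested, 23054 in ESCs, 21589 in MEFs and 18288 in MKFs; call at an adjusted p below 0.05). With 2 libraries a group, 3, 3 and 2 residual degrees of freedom were left. The fit was tested on simulated data, with 100 changed genes per fold drawn from those with a control mean of at least 50. Spread beyond counting error was set for all genes to a median from the control group. The fit called 50% of 2-fold and 2% of 1.5-fold changes in ESCs, 95% and 68% in MEFs, and 77% and 47% in MKFs. In the real MEF and MKF comparisons far more genes were called, so these percentages do not carry over directly. Tables and plots were made with Python 3.11.15, pandas 2.3.3, numpy 2.4.6 and matplotlib 3.10.9. A group at 0 in both libraries was set against 3 reads per library, which covers counting error only.

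The members and lists were chosen with earlier results of these data known. Named were every Timp gene, every member called in a comparison of a mutant with its control, and the 5 members with the highest mean per kilobase in each table, with library values for the Timp genes and for called members with a log2 difference of at least 1 in size. Same-numbered ESC libraries deviated together from their group means (correlations 0.678, 0.349 and 0.492 over 11369 genes), which pairs them by their values; the labels give no source of the pairing. Alternatives were pseudocounts of 0.5 and 5, no filter, a mean of at least 10, 2 other scalings, no variance trend, only the 4 libraries compared, the replicate number as a block, each library left out and, added after the data were seen, each chromosome centred on its median.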

Additional observations from a re-analysis of the deposited data

Results flagged for a closer look

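In Actg1 KO and locus-deleted MEFs, 5 members were called against wild type in opposite directions, and the direct test of KO minus locus deletion (limma, Benjamini-Hochberg over all genes) passed for each. The 5 were picked by their opposite calls against the same wild-type libraries in the same fit. The direct test was therefore all but bound to pass and adds no separate support. It called 45.2% of all genes. Adamts20 differed by 5.9594 on the log2(value + 1) scale (adjusted p = 2.19e-05), with 175 in both KO libraries, 3 and 1 in locus-deleted and 7 and 6 in wild-type libraries. Adamts6 differed by -1.5291 (adjusted p = 3.02e-06), Timp1 by 1.1105 (5.48e-05), Adam19 by -1.0564 (5.58e-05) and Mmp14 by 0.8231 (5.22e-05). Each of these 5 differences had the same sign and passed the test with any 1 of the 4 libraries left out and with chromosomes centred. Against wild type, the locus-deletion calls of Adamts20, Timp1, Adam19 and Mmp14 were lost with at least 1 library left out (adjusted p up to 0.207, 0.152, 0.145 and 0.125), as were the KO calls of Timp1 and Mmp14 (up to 0.0751 and 0.0517). With chromosomes centred, Mmp14 in the locus deletion differed by -0.06 (adjusted p = 0.56). Only Adamts6 among the 5 was called in both mutants in every fit with 1 library left out.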

How the results depend on the processing

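Leaving out 1 library changed the number of members called most. It ranged from 0 to 0 in Actb KO ESCs (3 with all libraries), 0 to 4 in locus-deleted ESCs (10), 0 to 0 between the ESC mutants (5), 14 to 19 in Actg1 KO MEFs (26), 9 to 14 in locus-deleted MEFs (22), 21 to 26 between the MEF mutants (26) and 11 to 12 in Kindlin-2 KO MKFs (27). The lone library was then assumed to vary like the other groups. Such fits also had fewer degrees of freedom, so a call could be lost without a change in the difference. Without the variance trend the counts were 1, 5 and 1 in the ESC comparisons and 10 in locus-deleted MEFs, and with only the 4 libraries compared they were 1, 4, 0 and 9. Calls over all genes moved too, to 152, 567, 58 and 2082 without the trend and to 192, 500, 12 and 1888 with 4 libraries, beside 1126, 2580, 1125 and 4755. The cause was not tested. With the replicate number as a block, 5 members were called in Actb KO ESCs, 13 in locus-deleted ESCs and 7 between them, with 1850 of all genes in KO and 1735 between the mutants. In the MEF and MKF tables same-numbered libraries did not deviate together throughout (correlations -0.211, -0.302 and 0.214, and -0.0952), so the numbers do not pair them, and the block gave 22, 19 and 27 calls in MEFs and 24 in MKFs. The other alternatives left each count of calls within 1.5 times. Directions reversed in 4 cases. Timp3 in Actg1 KO MEFs was at 0.0166 when scaled without genes over 1 percent of the total, and -0.1482 to 0.0134 with a library left out; that scaling moved the median of all genes in this comparison to 0.141, beside 0.059. Adamts5 between the MEF mutants was at 0.1581 and Timp2 in MKFs at -0.0302 with chromosomes centred. Timp1 between the ESC mutants was at -0.1104 to 0.0462 with a library left out. Genes that stayed below 4 in every ESC or MEF library, or below 5 in every MKF library, were not analysed here, and changes of members at a few reads are not resolved at this depth.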
